A study of Mus musculus with 5 samples.

Results

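Hox cluster genes are the homeobox genes of the Hoxa, Hoxb, Hoxc and Hoxd clusters, each named by a cluster letter and a paralog number. They were taken as every gene on the array whose symbol is Hoxa, Hoxb, Hoxc or Hoxd followed by a number, which gave 38 of the 23185 named genes. Hoxa and Hoxb had 10 measured members each, and Hoxc and Hoxd had 9 each. Expression was measured on 1 Affymetrix array for each of 5 clones of Ocy454, a line of mouse cells with osteocyte traits. Per the labels, single-cell sorting gave 37 clones that were screened for Sost, which encodes sclerostin, a secreted inhibitor of Wnt signalling. The high SOST group is clones 12H and 15H, and the low SOST group is clones 4L, 9L and 24L. All of them are untreated derivatives of the same line, grown for 7 days at 37 °C in the same medium, and each clone descends from 1 cell. The design asks which genes separate clones picked by their Sost level.

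Hox proteins are transcription factors with a homeodomain, and they bind DNA together with cofactors of the PBX and MEIS families. In the embryo the genes of a cluster are switched on in the order in which they lie along the chromosome, so that low paralog numbers mark anterior and high numbers mark posterior or distal positions. Skeletal cells keep part of this positional code after birth, and posterior Hoxa and Hoxd genes pattern the limb segments. Paralog numbers 1 to 3 are called anterior here, 4 to 8 central and 9 to 13 posterior.

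Values are on the RMA log2 scale, where a difference of 1 is 2-fold. Differences are the mean of the high SOST clones minus the mean of the low SOST clones, with limma's standard error (SE). The array medians lay between 4.04 and 4.08. Sost itself read 4.08 in 12H and 3.92 in 15H against 3.78 for 4L, 3.89 for 9L and 3.91 for 24L, a difference of 0.14 with a limma adjusted p of 0.737. Of 7 osteocyte markers, 3 lay above the level of silent genes (defined below) in all clones, and Mepe and Fgf23 lay under it in every clone. Dmp1, a matrix protein of osteocytes, read 7.45 in 12H and 5.75 in 15H against 2.54 to 2.90 in the low SOST clones. In the same order Phex read 6.04 and 6.99 against 2.08 to 3.17, and Dkk1 6.71 and 8.17 against 3.46 to 3.93. These were the 3 of 7 markers at least 2-fold higher in the high SOST clones without overlap, and 0 were at least 2-fold lower. Pdpn, a surface protein of early osteocytes, ran the other way, at 8.35 in 12H and 8.06 in 15H against 8.97 to 9.20. The mesenchymal factor Prrx1 read 8.66 to 10.2. Of the defining markers of other cell types, 0 of 3 endothelial and 1 of 4 blood genes lay above that level in all clones. The same held for 1 of 3 adipocyte, 2 of 3 muscle, 1 of 3 neural, 2 of 3 epithelial, 2 of 4 chondrocyte and 3 of 5 measured osteoblast genes. Of the osteoblast genes 4 were at least 2-fold higher in the high SOST clones without overlap, with a median difference of 2.29, and their mean was lowest in 4L (5.04, against 8.17 to 10.2 in the other clones). The part of this difference in the Hox values was not tested.

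At the reference used here, detectability set Hoxc and Hoxa apart from Hoxb and Hoxd. The level of silent genes was taken on each array as the 95th percentile of 1354 olfactory and vomeronasal receptor genes, which lay between 3.37 and 3.56. In all 5 clones, 21 of 38 Hox genes read above this reference (55.3%), against 55.8% of all named genes. In Hoxc 8 of 9 did so, in Hoxa 8 of 10, in Hoxb 4 of 10 and in Hoxd 1 of 9. Another 12 members lay under the reference in every clone, and 5 were above it in some clones. Of the 38 members, 3 held 1 value on all arrays and 10 held 2 or 3 values. Some of these count as above the reference: Hoxb1 read 4.08 on all arrays, and Hoxd8 4.02 and Hoxc4 5.32 in every clone but 12H. Hoxa13 read 3.79 in 12H, 4L and 9L alike. Whether such repeated values reflect detected RNA was not tested. Probe sets differ in brightness, so this separates detected from undetected genes but gives no order of level between genes. At the 99th percentile of receptor genes (4.53 to 4.78 over the arrays), the same Hoxc genes stayed above in all clones. Hoxa3, Hoxa5, Hoxa10 and Hoxa13 did not, so the place of Hoxa beside Hoxc depends on the limit.

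**Figure D1:**
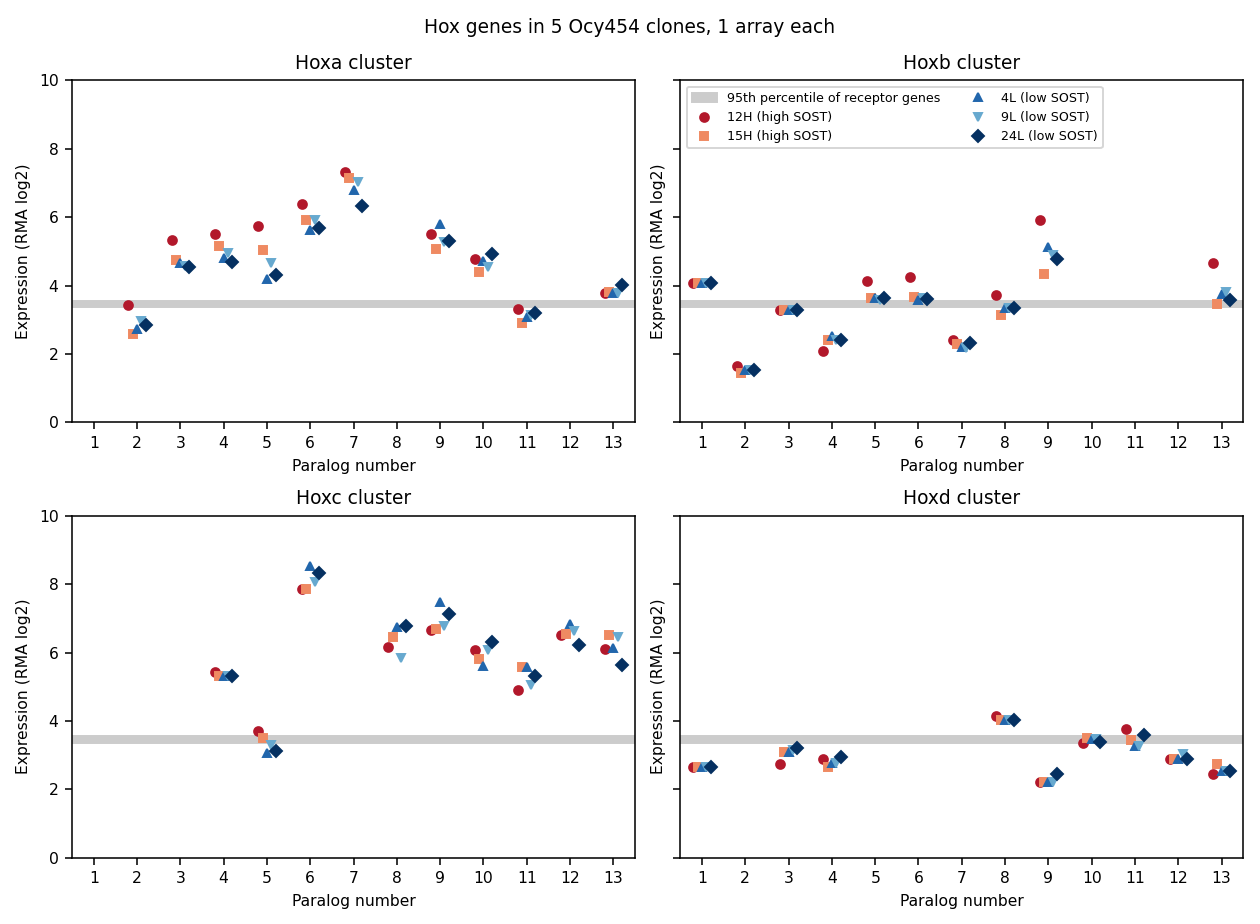
RMA log2 expression (vertical axis) of the 38 measured Hox genes by paralog number, with 1 panel per cluster and 1 point per clone. The grey band spans the 95th percentile of receptor genes over the 5 arrays, 3.37 to 3.56. Most Hoxa and Hoxc genes lie above it, while 8 of 9 Hoxd genes lie under or across it.

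Over all members the groups hardly differed. The median Hox difference was 0.0043, with 19 members above 0, 16 below 0 and 3 with the same value on all arrays. The median over all named genes was 0. In limma's fit over all genes, 0.0% of 23185 genes had an adjusted p under 0.05, and the lowest adjusted p of a Hox gene was 0.737. At an unadjusted p under 0.05 the fit called 3 Hox genes, Hoxa4, Hoxa5 and Hoxc5, all higher in the high SOST clones. Among all genes 3.07% were called higher and 2.71% lower at that limit. With 2 clones against 3, the smallest p of an exact permutation test is 0.1, so members are described by size and by overlap of the clones.

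In 6 of 38 members (15.8%) both high SOST clones lay above all low SOST clones, namely Hoxa3, Hoxa4, Hoxa5, Hoxa7, Hoxb6 and Hoxc5. The share among all genes was 8.26%. In Hoxc6 and Hoxc9 (5.26%) both lay below, against 7.75% of all genes. Among genes above the receptor reference in all clones the shares were 5 of 21 Hox genes (23.8%) against 11.0% for above, and 2 of 21 (9.52%) against 11.2% for below. By position, 5 of 15 central genes lay above without overlap, 1 of 7 anterior genes and 0 of 16 posterior genes.

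Only Hoxa5 combined a group difference of 2-fold or more with no overlap, and no member did so in the other direction. Among all genes 0.867% were higher by this rule and 0.983% were lower. A span of 2-fold or more between the highest and lowest clone was seen in Hoxb9, Hoxa5 and Hoxb13, which is 7.89% of members against 11.7% of all genes. Among detected genes it was 2 of 21 (9.52%) against 16.2%. The spans of these 3 genes were 1.58, 1.57 and 1.22, and the next widest, Hoxa7, reached 0.99.

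Clone 12H was the highest of the 5 clones for 18 of 38 Hox genes (47.4%), against 21.9% of all genes. Of these 18, 7 were Hoxa and 7 Hoxb genes. Clone 15H, the other high SOST clone, was highest for 4 members and lowest for 10. Clone 12H lay above 15H in 23 members, below it in 10 and level with it in 5. Many of the counts above thus differ with the clone. Without 15H, 12H lay above all low SOST clones in 18 members and below them in 7, against 25.2% and 21.0% of all genes. Without 12H, 15H lay above them in 10 members and below them in 11, against 18.7% and 18.5% of all genes.

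**Figure D2:**
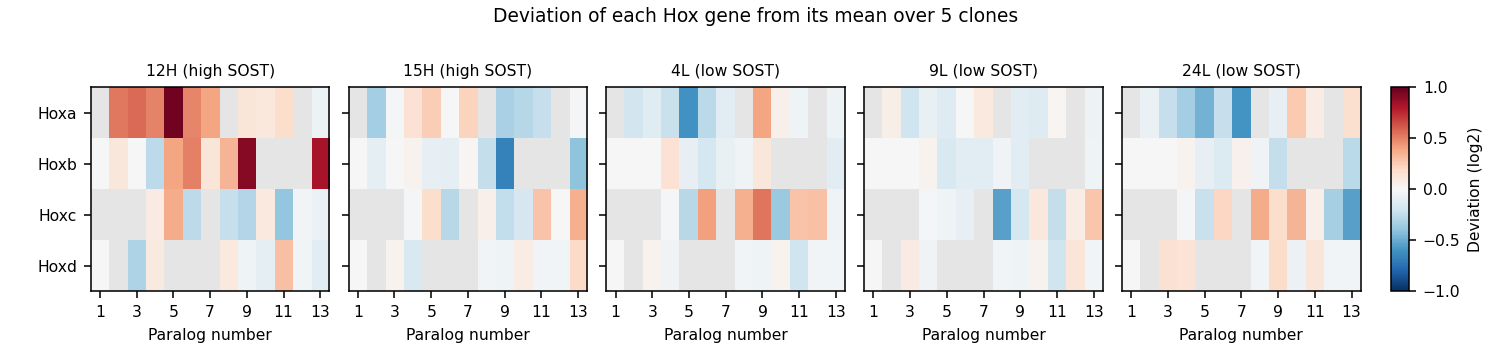
Deviation of each Hox gene from its own mean over the 5 clones (colour, log2, from -1 to 1), by cluster and paralog number, with 1 panel per clone. Grey squares have no measured gene. Clone 12H is raised from Hoxa2 to Hoxa7 and at Hoxb9 and Hoxb13, where clone 15H is low in Hoxa2, Hoxb9 and Hoxb13.

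In the Hoxa cluster Hoxa3, Hoxa4, Hoxa5 and Hoxa7 read higher in both high SOST clones, and no posterior gene did. All 6 genes from Hoxa2 to Hoxa7 had a mean difference above 0, with a median of 0.49, and 12H was highest in all 6, while 15H was lowest in Hoxa2 and level with 9L in Hoxa6. All 4 genes from Hoxa9 to Hoxa13 had a difference below 0, with a median of -0.10, and each was smaller in size than its SE. Among all 23185 named genes 11328 were above 0 and 10572 below. The turn of sign between Hoxa7 and Hoxa9 was itself not tested. Promoter sequences are shown for the gene with the widest group difference, Hoxa5, and for the last gene before and the first gene after this turn, Hoxa7 and Hoxa9. Each is the 250 bases before the RefSeq start on GRCm38.p6, minus strand of chromosome 6, read 5′ to 3′ along the gene, with motif matches in capitals.
Hoxa5 (chr6:52204588-52204837): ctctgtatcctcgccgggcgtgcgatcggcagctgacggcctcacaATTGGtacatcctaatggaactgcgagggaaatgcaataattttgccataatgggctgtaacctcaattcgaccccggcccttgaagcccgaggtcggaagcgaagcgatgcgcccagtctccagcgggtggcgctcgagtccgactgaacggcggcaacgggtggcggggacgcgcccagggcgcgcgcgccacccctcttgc
Hoxa7 (chr6:52218574-52218823): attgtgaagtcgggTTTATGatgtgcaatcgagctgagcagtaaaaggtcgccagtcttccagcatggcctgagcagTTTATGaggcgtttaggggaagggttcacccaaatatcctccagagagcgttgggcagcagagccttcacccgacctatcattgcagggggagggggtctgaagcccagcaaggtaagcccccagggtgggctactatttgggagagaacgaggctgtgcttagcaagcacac
Hoxa9 (chr6:52227371-52227620): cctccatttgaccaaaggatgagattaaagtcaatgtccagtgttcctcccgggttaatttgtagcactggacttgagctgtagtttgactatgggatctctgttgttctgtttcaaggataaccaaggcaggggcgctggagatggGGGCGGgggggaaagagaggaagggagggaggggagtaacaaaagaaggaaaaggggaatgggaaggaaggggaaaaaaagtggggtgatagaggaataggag

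The capitals mark matches on either strand to 5 motifs. These were TATAAA for the element bound by the basal machinery, CCAAT for the box bound by NF-Y, and GGGCGG for the element bound by SP1. The others were TTTATG for the core bound by CDX factors and TGATTNAT for a joint site of PBX and HOX proteins. The Hoxa5 window held 1 CCAAT match, on the other strand, 204 to 200 bases before the start. The Hoxa7 window held 2 TTTATG matches on the gene strand, and the Hoxa9 window held 1 GGGCGG match. Of all 27025 promoters of this length, 34.5% held CCAAT, 11.1% TTTATG, 32.9% GGGCGG, 12.97% TATAAA and 2.99% TGATTNAT. The Hoxa5 window had a GC content of 63.6% and 28 CpG dinucleotides, Hoxa7 had 54.8% and 7, and Hoxa9 had 49.6% and 3. The medians over all promoters were 52.0% and 6. Of the 38 members, 22 had an entry in this RefSeq table. The Hoxa5 window also lies inside the annotated spans of Hoxa3 and of the long non-coding RNA Hoxaas3, and the Hoxa9 window inside that of the non-coding gene Gm52902. A match is a description of the letters, not a bound site.

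Hoxa5 (Entrez gene 15402), a central gene known for its role in cervical vertebrae and the lung, read 5.75 in 12H, 5.04 in 15H, 4.18 for 4L, 4.66 for 9L and 4.32 for 24L. Both high SOST clones were above all low SOST clones. The high SOST clones averaged 5.40 ± 0.51 (SD, n = 2) and the low SOST clones 4.39 ± 0.25 (SD, n = 3). The difference was 1.01 (SE 0.29), which is 2.01-fold, with a limma adjusted p of 0.737. The difference was 0.65 without 12H and 1.365 without 15H. It was under 2-fold as well without 4L (0.90) and without 24L (0.97).

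The neighbours of Hoxa5 were ordered much the same way. Hoxa4 (Entrez gene 15401) read 5.52 in 12H and 5.16 in 15H against 4.80 for 4L, 4.94 for 9L and 4.68 for 24L, a difference of 0.53 (SE 0.15). Hoxa3 (Entrez gene 15400), which patterns the throat and its glands, read 5.34 and 4.76 against 4.65, 4.57 and 4.54 in the same order of clones, a difference of 0.46 (SE 0.20). Hoxa7 (Entrez gene 15404) read 7.31 and 7.15 against 6.80, 7.02 and 6.32, a difference of 0.52 (SE 0.25). In these 3 genes the groups did not overlap, and 12H was on top each time. Without 12H, 15H still lay above the low SOST clones in all 3 and in Hoxa5, with differences of 0.17 for Hoxa3, 0.35 for Hoxa4 and 0.43 for Hoxa7.

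Hoxa6 read 6.39 in 12H, while 15H and 9L both read 5.91, above 5.63 in 4L and 5.67 in 24L. Its groups therefore overlapped, with a difference of 0.41 (SE 0.19). Hoxa2, which patterns the second pharyngeal arch, read 3.44 in 12H, 2.58 in 15H, 2.73 for 4L, 2.98 for 9L and 2.85 for 24L, under the receptor reference in every clone. Without 12H its difference was -0.27.

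The posterior Hoxa genes did not follow. Hoxa9 read 5.51 in 12H and 5.07 in 15H against 5.79 for 4L, 5.28 for 9L and 5.31 for 24L, with 4L highest and 15H lowest. Its difference was -0.17 (SE 0.24), and 0.050 without 15H. Hoxa10, which acts in the proximal limb and the uterus, read 4.39 to 4.93. Hoxa11, which acts in the middle limb segment, read 2.91 to 3.31 and lay under the receptor reference throughout. Hoxa13, a gene of the hand and foot plate, read 3.79 to 4.01. These 3 genes differed between the groups by -0.15, -0.04 and -0.06.

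**Figure D3:**
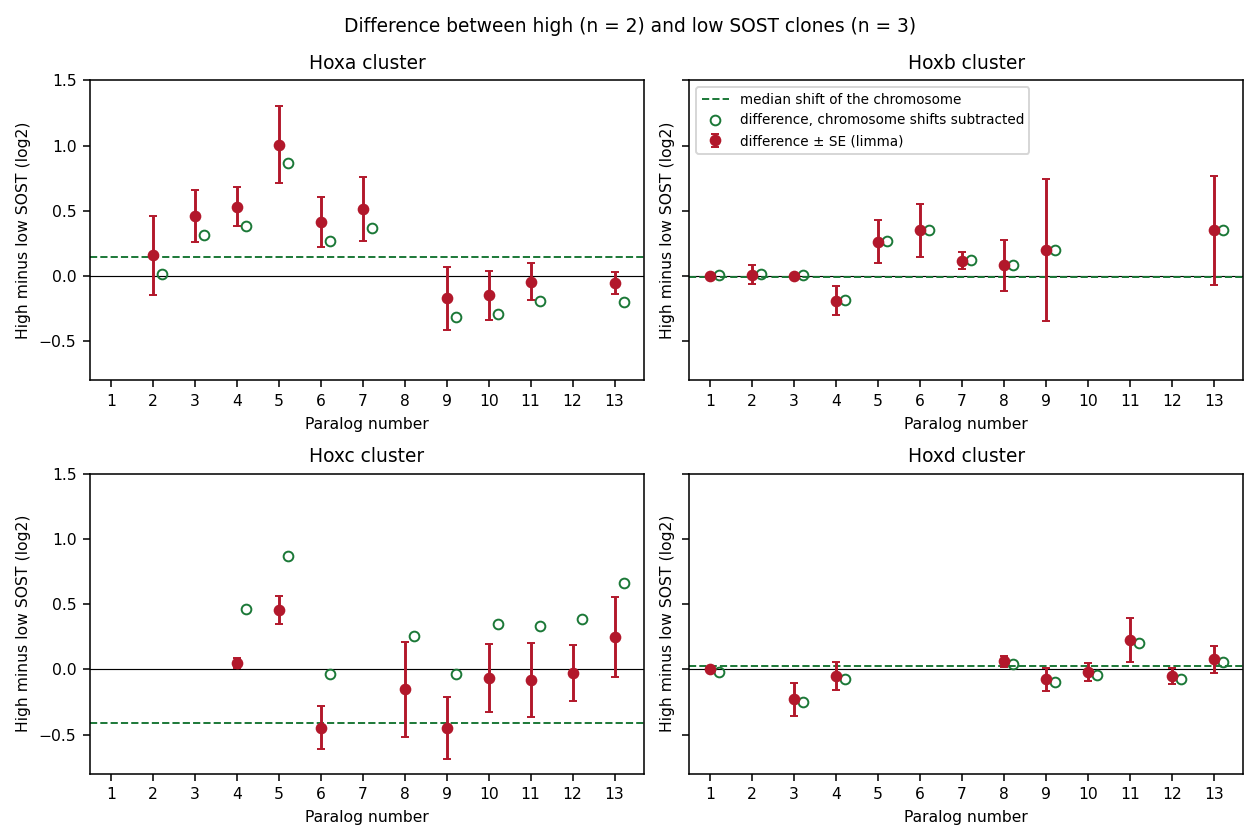
Difference between high and low SOST clones (vertical axis, log2) by paralog number for each cluster. Filled points with bars are the limma difference ± SE, hollow points the difference after each clone's chromosome shift was subtracted, and the dashed line is the shift of the chromosome. Hoxa3 to Hoxa7 lie above the dashed line of chromosome 6 and Hoxa9 to Hoxa13 below it, while Hoxc6 and Hoxc9 move to near 0 after subtraction.

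Clones also differed over whole chromosomes, and these shifts moved with some of the values above. On chromosome 6, which holds Hoxa, 377 genes with a mean of 6 or more deviated in 12H by a median of 0.36 and in 15H by -0.15. The values were 0.00 for 4L, 0.06 for 9L and -0.17 for 24L, so the high minus low shift was 0.14. With each clone's shift subtracted, the differences were 0.31 for Hoxa3, 0.39 for Hoxa4, 0.86 for Hoxa5, 0.27 for Hoxa6 and 0.37 for Hoxa7. Of these 5 genes 4 had no overlap before and 4 after subtraction, with Hoxa7 in the first count only and Hoxa6 in the second only. Among all genes the share above without overlap rose from 8.26% to 12.9% with the subtraction. The count with 12H highest among Hoxa2 to Hoxa7 dropped from 6 to 3, with 15H highest in the other 3. Hoxa9 then lay lower in both high SOST clones without overlap, at -0.32, as did 9.83% of all genes after subtraction. The shift was set on genes with a mean of 6 or more, while most Hox genes read lower.

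Among the measured non-coding genes of the Hoxa locus, only Mira kept the groups apart as Hoxa3, Hoxa4, Hoxa5 and Hoxa7 did. Of 12 other genes annotated inside the cluster 4 were measured. Mira, a long non-coding RNA that lies between Hoxa6 and Hoxa7, read 6.05 in 12H and 5.80 in 15H against 5.59 for 4L, 5.51 for 9L and 4.57 for 24L, without overlap, a difference of 0.70 (SE 0.39). Hoxaas3 read 4.66 in 12H and 4.28 in 15H against 4.05 for 4L, 4.08 for 9L and 4.28 for 24L, and 12H was again highest. Its values in 15H and 24L were level, so the groups overlapped. The other measured pair, 5730596B20Rik and Hoxa11os, lay under the receptor reference. Whether the array separates sense from antisense RNA at these loci was not tested.

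Outside the cluster, 12H was highest in 4 of the 6 nearest measured protein-coding genes. These were Hnrnpa2b1 with 8.19 in 12H and 7.79 to 7.91 in the others, Skap2 with 8.17 and 7.41 to 7.67, Hibadh with 8.14 and 7.68 to 7.93, and Tax1bp1 with 9.76 and 9.01 to 9.57. The remaining flanking genes were Snx10, highest in 9L, and Evx1, under the reference. The median high minus low difference of the 6 flanking genes was 0.21, against 0.52 for Hoxa3 to Hoxa7.

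**Figure D4:**
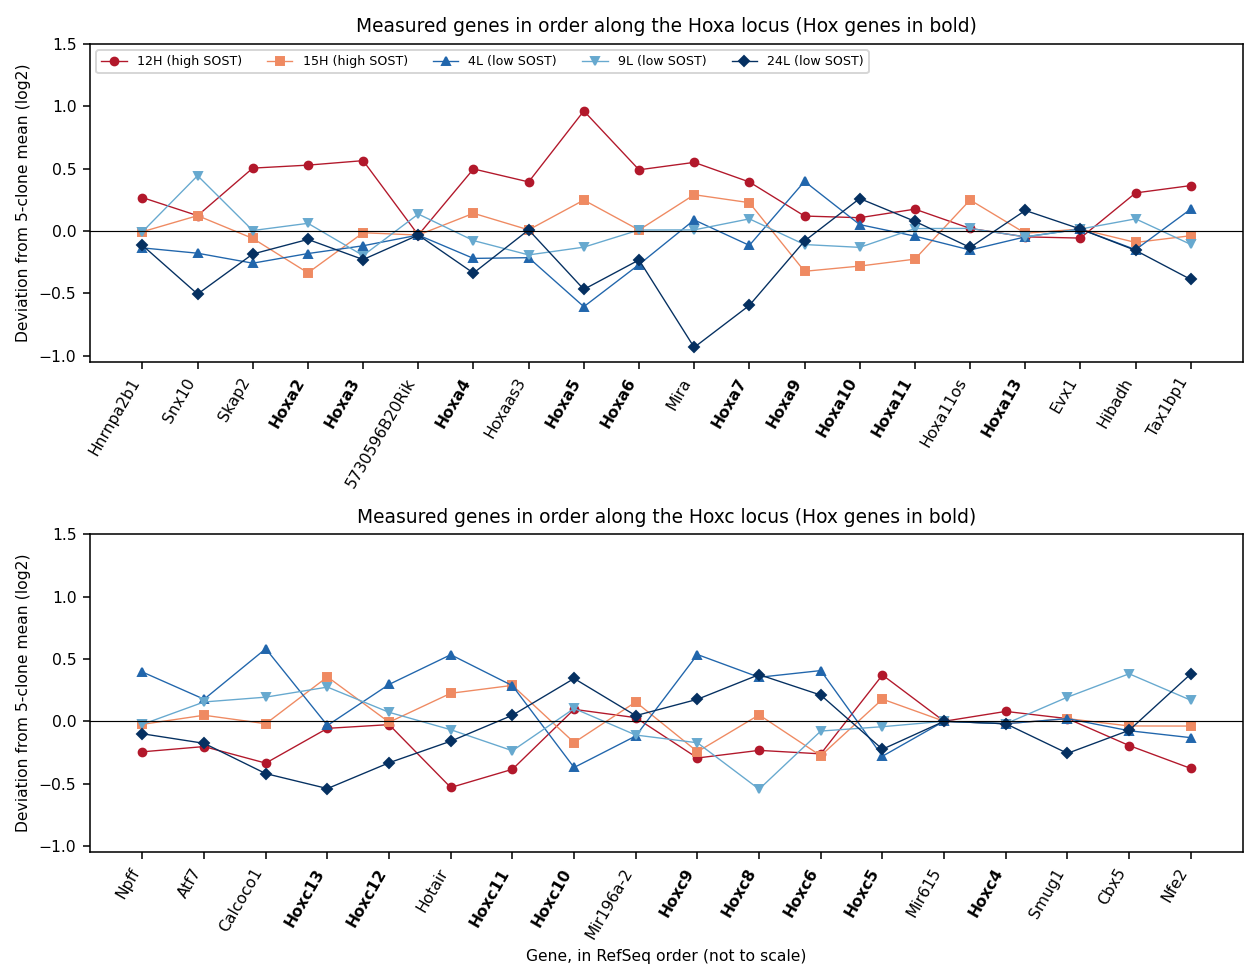
Deviation from the mean over 5 clones (vertical axis, log2) for each measured gene in RefSeq order along the Hoxa locus (top) and the Hoxc locus (bottom), with 3 flanking protein-coding genes on each side and 1 line per clone. Clone 12H lies highest over the stretch from Skap2 to Hoxa7 except at 5730596B20Rik, and no clone keeps 1 rank along Hoxc.

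In Hoxb, 12H was the highest clone in 7 of 10 genes and 15H the lowest in 4, and 4 genes were above the receptor reference in all clones. Hoxb9 (Entrez gene 15417), a posterior gene, had the widest span of any member and read 5.91 in 12H, 4.33 in 15H, 5.11 for 4L, 4.89 for 9L and 4.76 for 24L. The high SOST clones were thus the highest and the lowest of the 5, at 2.99-fold from each other, with the low SOST clones between them. The group difference was 0.20 (SE 0.54) with a limma adjusted p of 0.939, and -0.59 without 12H. Hoxb13 (Entrez gene 15408), the most posterior gene of the cluster and known from prostate and tail, read 4.67 in 12H, 3.45 in 15H, 3.74 for 4L, 3.81 for 9L and 3.58 for 24L. Here too 12H was highest and 15H lowest, and 15H was the only clone under the receptor reference, so the true distance between them may be larger than the measured 1.22. The group difference was 0.35 (SE 0.42), and -0.26 without 12H.

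Of the 5 central Hoxb genes, 12H was highest in 4 and lowest in Hoxb4. Hoxb6 read 4.26 in 12H, 3.66 in 15H, 3.57 for 4L, 3.64 for 9L and 3.62 for 24L, a difference of 0.35 (SE 0.20) that was 0.05 without 12H. Hoxb5 read 4.12 in 12H and 3.57 to 3.65 in the others. Hoxb8 read 3.72 in 12H, 3.14 in 15H and 3.35 in each low SOST clone, above the reference in 12H only. Hoxb4 read 2.10 in 12H and 2.40 to 2.51 in the others, and Hoxb7 read 2.17 to 2.40, both under the reference in all clones. The anterior genes were flat: Hoxb1 read 4.08 and Hoxb3 3.28 on all 5 arrays, and Hoxb2 read 1.45 to 1.66. Chromosome 11, which holds Hoxb, had a high minus low shift of -0.0049 over 654 genes, and its shift in 12H was 0.00. Over the clones the shifts ran from -0.0086 to 0.025. Subtracting shifts of this size could hardly change which clone was highest, and 12H stayed so in 7 of 10 Hoxb genes. Of the 6 flanking genes, 12H was highest only in Snx11.

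In Hoxc, 8 of 9 members were detected in all clones, and 6 of 9 had a difference below 0, with a median of -0.06. With chromosome shifts subtracted, 7 of 9 were above 0, with a median of 0.35. The step takes the same high minus low shift of -0.41 from every Hoxc difference. The turn of the median thus follows from the step itself, and the direction of the cluster depends on it. Hoxc6 (Entrez gene 15425), a central gene used at the forelimb and thoracic level, read 7.87 in 12H and 7.85 in 15H against 8.54 for 4L, 8.05 for 9L and 8.34 for 24L. The groups did not overlap, and the difference was -0.45 (SE 0.16). Hoxc9 (Entrez gene 15427), a posterior gene of the thorax, read 6.65 and 6.70 against 7.48, 6.77 and 7.12, a difference of -0.45 (SE 0.24), again without overlap. Hoxc8, which lies between them, read 6.16 in 12H, 6.45 in 15H, 6.75 for 4L, 5.85 for 9L and 6.77 for 24L. It overlapped, with a difference of -0.15 (SE 0.37) that was 0.0051 without 24L.

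The size of these differences was close to that of chromosome 15 as a whole, which holds Hoxc. Over 347 genes of that chromosome the median deviation was -0.36 in 12H, -0.12 in 15H, 0.30 for 4L, 0.27 for 9L and -0.05 for 24L, a high minus low shift of -0.41. After subtraction the differences were -0.04 for both Hoxc6 and Hoxc9, the groups overlapped in both, and Hoxc8 turned to 0.26. In Hoxc9, 9L read 6.77, near the 6.65 and 6.70 of the high SOST clones, and its chromosome shift was 0.27. The part of the chromosome shift in the Hoxc values was not tested. The 6 flanking genes had a median difference of -0.21, with Npff, Atf7 and Calcoco1 highest in 4L and Smug1 and Cbx5 in 9L.

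Hoxc5, a central gene, ran the other way from Hoxc6. It read 3.70 in 12H and 3.51 in 15H against 3.05 for 4L, 3.29 for 9L and 3.11 for 24L, without overlap, a difference of 0.46 (SE 0.11) that was 0.87 with chromosome shifts subtracted. Only 12H was above the receptor reference, so this difference lies at the level of silent genes. Hoxc4 read 5.42 in 12H and 5.32 in each other clone.

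The most posterior Hoxc genes were detected in every clone and had no group pattern. Hoxc10 read 6.06 in 12H, 5.80 in 15H, 5.60 for 4L, 6.07 for 9L and 6.31 for 24L. Hoxc11 read 4.89 to 5.57 and Hoxc12 6.21 to 6.84. Hoxc13, known for hair and nail growth, read 6.11 in 12H, 6.53 in 15H, 6.14 for 4L, 6.44 for 9L and 5.63 for 24L, so that 24L was lowest and the groups overlapped. Their differences were -0.06, -0.08, -0.03 and 0.25, and 12H was the highest clone in none of the 4. After subtraction of the chromosome shifts, Hoxc4, Hoxc12 and Hoxc13 lay higher in both high SOST clones without overlap, at 0.46, 0.38 and 0.66. Hoxc10 and Hoxc11 then differed by 0.35 and 0.33, with overlap. The chromosome 15 shifts were themselves lower in both high SOST clones, at -0.36 and -0.12 against -0.05 to 0.30. Subtracting them would place a gene with equal values in all clones above by 0.41 without overlap. The order is thus partly built into the step, and Hoxc4 differed by only 0.05 before it. Among all genes 12.9% lay above without overlap after subtraction. Hotair, a long non-coding RNA between Hoxc11 and Hoxc12, read 3.94 in 12H, 4.70 in 15H, 5.01 for 4L, 4.41 for 9L and 4.32 for 24L, with a difference of -0.26 (SE 0.36).

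Hoxd was mostly undetected, and small spans of undetected genes say nothing of how their RNA varied. Its differences ran from -0.23 to 0.23 and its spans from 0 to 0.51, and no member kept the groups apart. Only Hoxd8, a central gene, was above the receptor reference in all clones, at 4.15 in 12H and 4.02 in each other clone. Hoxd11, a gene of the forearm and shank, read 3.77 in 12H, 3.44 in 15H, 3.27 for 4L, 3.27 for 9L and 3.59 for 24L, above the reference in 12H and 24L. Hoxd10 read 3.35 to 3.51, with 15H highest. It counted as above the reference in the 3 low SOST clones only, because the reference itself was higher on the arrays of 12H and 15H (3.55 and 3.56) than on the others (3.37 to 3.45). Hoxd1, Hoxd3, Hoxd4, Hoxd9, Hoxd12 and Hoxd13 lay under the reference in every clone, at 2.23 to 3.22. Hoxd12 and Hoxd13 pattern the digits. Chromosome 2, which holds Hoxd, had a high minus low shift of 0.02 over 615 genes. Of the flanking genes, Mtx2 was lower in the high SOST clones without overlap, by -0.36 (SE 0.10).

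The measured microRNA genes inside the clusters did not read above the reference. Mir10a, Mir10b, Mir196a-1, Mir196a-2 and Mir615 read 1.19 to 3.02, all under the receptor reference. Mir10a, Mir10b and Mir615 each held a single value on all arrays. Whether these probe sets read the mature microRNAs was not tested. In bulk RNA, fewer cells that express a gene and less RNA per cell cannot be told apart.

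Genes that act with or on Hox genes were described from lists, and 0 members passed limma's adjusted test in any of them. Of 9 listed TALE cofactors 8 were measured, all above the reference in every clone, with a median difference of 0.11. Pbx4 read 5.75 in 12H and 6.001 in 15H against 5.43 for 4L, 5.53 for 9L and 5.30 for 24L, a difference of 0.45 (SE 0.12), the only member with an unadjusted limma p under 0.05. Pbx3 ran the other way at -0.38 (SE 0.13), and Pknox1 was at 0.54 (SE 0.19). Of 26 Polycomb genes, which keep Hox genes silent, 25 were measured, with a median of -0.02 and 0 with an unadjusted p under 0.05. Cbx7, a subunit that binds the repressive histone mark, read 5.77 in 12H and 6.23 in 15H against 7.82 for 4L, 7.19 for 9L and 6.28 for 24L. It was the only listed Polycomb gene at least 2-fold apart without overlap, at -1.09 (SE 0.54), although 15H and 24L nearly met.

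Of 14 listed Trithorax, demethylase and related genes, which keep Hox genes active, 13 were measured, with a median of 0.01. The 1 called at an unadjusted limma p under 0.05 was Dot1l at 0.58 (SE 0.20), a listed gene of neither named class. Of the 19 upstream patterning genes all were measured, with a median of -0.01. Crabp2, a carrier of retinoic acid, read 6.62 in 12H and 7.84 in 15H against 9.70 for 4L, 9.95 for 9L and 8.93 for 24L, a difference of -2.29 (SE 0.55) without overlap. Of the 19 genes, 11 were above the reference in all clones and 4 in no clone. The retinoic acid genes Rdh10, Rara and Rarg were among the 11, while the enzyme Aldh1a2, at 2.50 to 2.73, was among the 4. The Cdx genes, direct activators of central Hox genes, were detected unevenly. Cdx2 was above the reference in all clones at 3.58 to 4.05, Cdx1 read 3.48 on every array and was above it in 3 clones, and Cdx4 lay under it at 2.20 to 2.34.

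Of 35 limb and regional identity factors 33 were measured, with a median of 0, and Lhx2 (0.21, SE 0.07) and Tbx18 (0.78, SE 0.26) had an unadjusted limma p under 0.05. Irx5 read 8.05 in 12H and 6.85 in 15H against 5.95 for 4L, 6.53 for 9L and 6.70 for 24L. Dlx6 read 7.53 and 7.06 against 5.42, 6.62 and 6.81. Both were at least 2-fold higher without overlap, at 1.06 (SE 0.48) and 1.01 (SE 0.53), and 4L was lowest in both. The markers of forelimb and hindlimb, Tbx5 and Tbx4, lay under the reference in every clone, at 2.53 to 2.67 and at 2.76. Pitx1, a hindlimb factor, read 5.43 to 5.60. Of the 17 listed non-coding genes of the clusters 9 were measured, with a median of 0 and 0 at an unadjusted p under 0.05.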

How the data were processed

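RNA of 5 clones was labelled with biotin and read on 1 array each, per the labels' protocols. The authors deposited log2 expression per probe set. RMA, affy 1.36.1 and R 2.15.1 are named in the submitters' processing notes, with no role stated. RMA makes the arrays share their distribution, so a change common to most genes would not show. The chip definition and filters were not given in the sources used here. Precision is limited by the number of arrays.

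Of 25206 probe sets, 23185 with 1 gene were matched to a RefSeq table of GRCm38.p6, 0 had several genes, and 2021 without a name stayed out. Of the named genes 1280 held 1 value on all arrays. Groups came from the labelled Sost level. The two-sided tests came from limma 3.58.1 under R 4.3.3, with the group as the only term and eBayes without trend. P-values were adjusted over all 23185 genes (Benjamini-Hochberg), and the threshold was 0.05. The fit had 3 residual degrees of freedom and 0.70 prior ones. P-values measure the spread between clones, which may in part be technical. The fit was also run on simulated data in which genes varied independently, without shifts shared by a chromosome. It called 72 of 100 genes altered by 2 and 95 of 100 altered by 4 (log2), and 6 unaltered genes. The largest Hox difference was 1.01, so the simulation does not show how well differences of that size are found.

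Chromosome shifts are each clone's median deviation from the median of the other clones, over genes with a mean of 6 or more. Every member is named. Values in all clones are given for members that span 1 or more, or differ by 1 or more without overlap, and for further members chosen after their values were seen. Context lists are given by count, median, up to 2 members with the smallest unadjusted p and any 2-fold apart without overlap. Further context genes were chosen after their values were seen. The members and lists were chosen with earlier results of these data known. Alternatives were other scalings, filters, moderation and limits, and leaving out each clone. Figures were drawn with matplotlib 3.10.9.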

Additional observations from a re-analysis of the deposited data

How the results depend on the processing

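Across 17 alternatives, 0 Hox genes passed the adjusted limma test in each one run. Of 182 values for 14 single members, those under a changed moderation, variance trend or filter could not turn, since these steps leave differences unaltered. Of all 182, 176 kept their sign. The other 6 turned: with a clone left out, Hoxa2 ran from -0.27 (without 12H) to 0.59, Hoxb9 from -0.59 to 0.99 and Hoxb13 from -0.26 to 0.96, the highest without 15H. Hoxa9 ran from -0.39 without 12H to 0.050 without 15H, and Hoxc8 from -0.45 without 9L to 0.0051 without 24L. Hoxc8 was 0.26 with chromosome shifts subtracted. Over all genes, limma called 2 after arrays were shifted to 1 median, 1 without moderation and 3 at an adjusted p under 0.1, against 0. The cause was not tested.

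The count of Hox genes 2-fold or more higher without overlap was 1, with 0 to 1 when a clone was left out and 0 with chromosome shifts subtracted. The count spanning 2-fold was 3, with 0 to 3 when a clone was left out (0 without 12H), 6 with chromosome shifts subtracted and 18 at a minimum of 0.58. The median Hox difference was 0.0043, with -0.0046 (without 12H) to 0.071 (without 15H) when a clone was left out, 0.070 with chromosome shifts subtracted and 0.087 as a mean. The count above the receptor reference fell from 21 to 12 at the 99th percentile. Of counts added after seeing the data, high above low without overlap was 6 to 18 and high below low 3 to 11 when a clone was left out, while the shares of all genes rose to between 11.9% and 25.2% and between 11.1% and 21.0%. With chromosome shifts subtracted, high above low was 9, against 12.9% of all genes. High below low was then 4, against 9.83% of all genes, and Hoxc6 and Hoxc9 were no longer among them.

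With 2 and 3 clones a group and 1 array each, outlying clones cannot be tested for. Differences of members near the receptor reference can be understated. No paired analysis was possible because the clones carry no shared replicate numbers.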
